A study of Homo sapiens with 3 samples.

Results

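A 3′UTR without any in-frame stop codon offers a ribosome that misreads the stop codon at the end of the coding sequence (CDS) no further place to terminate in the same frame before the mRNA ends. Such 3′UTRs were taken from ribosome profiling tables of HEK293T cells by rule. The transcript had to be listed for all 3 libraries, to reach a minimum mean of CDS reads, to have a deposited scored region of at least 18 nt past its stop codon, and to carry 0 further stop codons in its frame. The rule kept 242 of the 5680 transcripts that met the read and length minimum, and of the 8812 transcripts listed in all libraries. Of these 242 stop-free 3′UTRs, 7 belong to genes whose symbol starts with HIST and 235 to other genes. A further 169 listed transcripts had no in-frame 3′UTR stop codon but too few CDS reads. The read minimum lay between EIF1AD, kept with a mean of 128.3 CDS reads and no 3′UTR read in any library, and CFLAR, left out with a mean of 126.7 and likewise none. The shortest regions inside the length minimum were those of ZBTB38 (18 nt) and RTN4IP1 (19 nt), both without a 3′UTR read.

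HEK293T is a line derived from human embryonic kidney that carries the SV40 large T antigen. The tables list human transcripts, so this viral marker was not checked here. Of the 3 libraries, 2 come from cells without the drug (Untreated A, Untreated B) and 1 from cells exposed for 24 hours to G418 at 500 µg/mL (G418 A). This aminoglycoside acts at the decoding centre of the ribosome and makes tRNA selection less accurate. All libraries come from the same line with no other agent named. The question put to these transcripts was how densely ribosomes occupied a 3′UTR that holds no stop codon, with and without the drug. With 1 G418 library, the spread between treated cultures is unknown, and any test borrows the spread of the untreated pair.

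A ribosome that reaches the end of an mRNA without terminating is said to translate a nonstop mRNA. In human cells such ribosomes are split by PELO and HBS1L with ABCE1, and the mRNA is degraded by the SKI complex and the cytoplasmic exosome. Before that point the ribosome may meet the poly(A) tail, whose codons spell lysine. Replication-dependent histone mRNAs have no poly(A) tail and end instead just past a conserved stem-loop, which is bound by SLBP and is needed for their translation and for their timed decay.

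The stop codons that the results below turn on are shown with 12 nt on each side, 5′ to 3′ as DNA letters of the mRNA strand, from GENCODE v44 transcripts (hg38). Capitals mark the stop codon. The first 4 are non-histone 3′UTRs with high occupancy in G418 A, and the next 3 had no 3′UTR read there despite many CDS reads. The last is APRT, one of the named examples of the original work.
HES4 (chr1:999059-999061, minus strand): ccgtggctgcgcTGAggctgtggccct
KIF22 (chr16:29805308-29805310, plus strand): tgtggcgcctccTGAccgtcgtctcct
NACA (chr12:56712538-56712540, minus strand): gaattaacaatgTAAccatatggaagc
MRFAP1 (chr4:6641244-6641246, plus strand): agcgagtcgtcgTGAgcgcggtcggcg
STMN1 (chr1:25885723-25885725, minus strand): tctcaccatcacTAGgtacttaataaa
ATP5PF (chr21:25717689-25717691, minus strand): atcttaagcagcTAAccagcagctagc
H2BFS (chr21:43565617-43565619, plus strand): accagcgctaagTAAacttgccaaatt
APRT (chr16:88809698-88809700, minus strand): ctgcagtatgagTGAccacagggcctc

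The histone members are shown by the stem-loop that follows their stop codon, read from the hg38 genome, with 4 bases on each side. Capitals mark the loop and its paired arms.
HIST1H1E (chromosome 6, positions 45 to 60 after the stop codon): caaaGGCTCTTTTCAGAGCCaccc
HIST1H4H (chromosome 6, positions 42 to 57): caaaGGCCCTTTTCAGGGCCgccc
HIST1H4J (chromosome 6, positions 23 to 38): aaaaGGCCCTTTTCAGGGCCaccc
HIST2H2AB (chromosome 1, positions 36 to 51): caaaGGCTCTTTTAAGAGCCacca
The loops of HIST1H2AI, HIST1H2BE and HIST1H2BL have the same capital letters as that of HIST1H1E.

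Counted as the reads behind the deposited RPM scale, depth was 5857230 reads for Untreated A, 9477972 for Untreated B and 7216039 for G418 A. CDS reads came to 3838477, 6288190 and 4869512 in the same order, and 3′UTR reads to 15358, 21682 and 130411. The measure used here is 3′UTR occupancy, the read density of the 3′UTR as a percentage of the read density of the CDS of the same transcript in the same library. At 100% a 3′UTR holds as many ribosomes per nucleotide as its CDS. If ribosomes covered the 3′UTR as densely as the CDS, the median stop-free 3′UTR would have held 26.6, 51.1 and 38.3 reads in the same order of libraries. A count of 0 there allows an occupancy of up to 11.3%, 5.87% and 7.83%, respectively, from counting error alone.

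The stop-free 3′UTRs were short and rich in G and C. Their deposited length, which leaves out the first 6 nt after the stop codon, ran from 18 to 568 nt with a median of 75.5 nt, against a median of 1008 nt in the 5438 transcripts that have an in-frame stop codon. In the 209 with the same 3′UTR in GENCODE v44 the median GC content was 53.9%, against 40.5% in 4615 others. AATAAA or ATTAAA, the letters of the common poly(A) signals, stood in the last 50 nt on the sense strand of 49.1% of 165 stop-free 3′UTRs long enough to search, of 78.4% of 4580 others, and of 77.4% of all 4745 together. A match describes these letters only. Past the stop codon, the 209 3′UTRs held a median of 30 codons, with a range of 8 to 191.

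UGA ended 129 of the 242 CDSs (53.3%), UAA 61 (25.2%) and UAG 52 (21.5%). In the other transcripts these shares were 48.7%, 30.2% and 21.1%. With the next base, UGAG was the most common in the stop-free set (58 transcripts), followed by UGAC (36), UAAA (27) and UGAA (25). UGAC made up 14.9% of the stop-free set and 9.64% of the others.

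Whether a 3′UTR is stop-free depends on the transcript model. A single transcript stands for each gene in the tables, that with the most downstream stop codon. Where several remained, the authors chose by annotation rank (APPRIS, then consensus CDS) and longest CDS, and only then by the shortest 3′UTR. Of the 242, 238 had the same stop codon in GENCODE v44, and none of the 209 with the same 3′UTR length held an in-frame stop codon there, whereas all 4615 others of the same length did. For 95 transcripts a longer v44 transcript with the same stop codon does hold an in-frame stop codon, and for 143 none does. The stop codon also ends the MANE Select transcript, the agreed reference transcript of the gene, in 209 cases. In 86 of these 209 the MANE Select 3′UTR does hold an in-frame stop codon. In 111 of the 209 the deposited transcript has the identifier of the MANE Select one, though its deposited 3′UTR can differ in length. In the remaining 29 matched cases the MANE Select transcript ends at another stop codon.

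In untreated cells the stop-free 3′UTRs held few ribosomes, and in G418 A they held many more. Their pooled occupancy, all reads over all reads expected from the CDS densities, was 1.01% in Untreated A (285 reads, exact Poisson 95% interval 0.893 to 1.13), 0.961% in Untreated B (489 reads, 0.878 to 1.05) and 15.9% in G418 A (5528 reads, 15.4 to 16.3). The untreated mean was 0.984% ± 0.0321 (SD, n = 2), and G418 A was 16.1-fold above it, while the untreated libraries differed by 1.05-fold. With 1 treated library no permutation test of this value can reach the threshold, and intervals cover counting error only.

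Without the HIST genes the pooled occupancies of the 3 libraries, in the same order, were 0.959%, 0.887% and 16.2%, a fold of 17.5. The 5 3′UTRs with the most reads supplied 28.9% of all G418 A reads, and without them the fold was 16.1. The whole 3′UTRs of the other transcripts had 0.276%, 0.237% and 2.27%, but they are far longer and lie mostly past their first in-frame stop codon. The part of those 3′UTRs before that stop codon had 1.61%, 1.27% and 21.8%, a fold of 15.1. These values stand side by side as a description, and no test was made between the sets.

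Occupancy in G418 A differed little with 3′UTR length in the stop-free set. It was 19.5% in 69 3′UTRs of 18 to 49 nt, 15.2% in 74 of 50 to 99 nt, 16.6% in 59 of 100 nt to under 200 nt and 14.4% in 40 of at least 200 nt. In Untreated A the same classes had 1.64%, 1.08%, 0.851% and 0.807%, and in Untreated B 1.49%, 1.13%, 0.760% and 0.782%. Among the others, whole 3′UTRs of these lengths had 22.5%, 12.3%, 12.96% and 2.02% in G418 A. These whole-3′UTR values lie close together below 200 nt. Their wide gap is in the longest class, where the other 3′UTRs have a median of 1231 nt and the stop-free ones of 309.5 nt. The part of other 3′UTRs before the first in-frame stop codon, classed by its own length, had 30.2%, 24.2%, 21.5% and 15.1% in G418 A. By that measure the stop-free set was lower in every class, and the sets lay closest in the longest class. The stop-free regions run to the end of the transcript model, whereas those of the others end at a stop codon inside the 3′UTR. The effect of this difference on the read counts was not tested. The 40 long stop-free 3′UTRs stood 18.1-fold above their untreated mean of 0.795% ± 0.0178 (SD, n = 2). ACTB alone, with 10.2%, held 4565 of the 12273 reads expected in these 40 in G418 A.

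By stop codon, the pooled occupancy of the stop-free set in G418 A was 22.6% for UGA, 12.9% for UAG and 10.6% for UAA. The untreated values did not follow this order. UGA had 1.12% in Untreated A and 0.821% in Untreated B, UAG had 0.904% and 1.15%, and UAA had 0.965% and 0.949%. UGA was thus the highest of the 3 in Untreated A and the lowest in Untreated B. Among the next-base classes with at least 25 members, UGAC had 24.0%, UGAG 22.6%, UGAA 16.7% and UAAA 11.4% in G418 A. The smaller classes ran from 5.22% (UAAG) to 29.4% (UGAU), with UAAC at 25.5%, so the UAA classes spread widely. HIST genes carry part of the UAG and UAA values, which were 11.4% and 11.9% without them. ACTB alone supplied 465 of the 1385 UAG reads in G418 A and 4565 of the 10731 expected there. It is among the genes set aside below for sharing reads with near-identical copies.

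**Figure D1:**
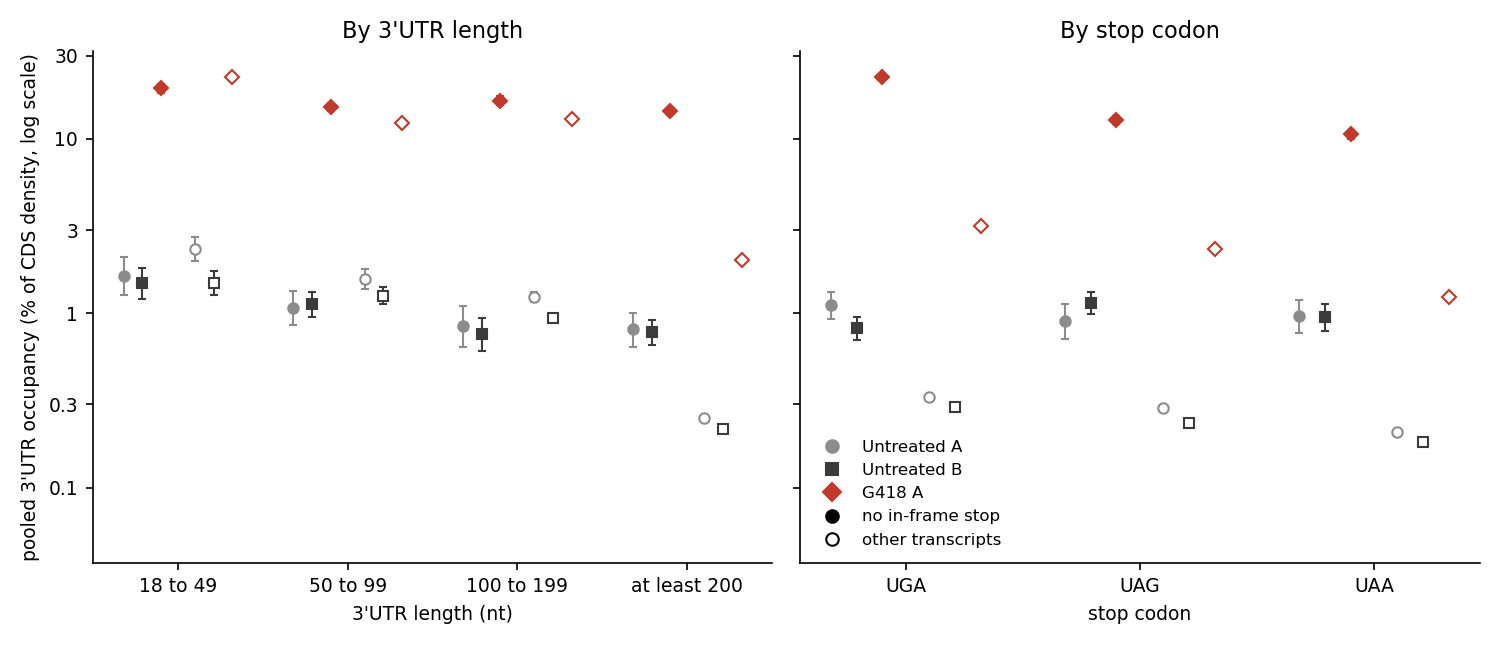
Pooled 3′UTR occupancy as a percentage of CDS density on a log axis, by 3′UTR length in nt (left) and by stop codon (right), for stop-free 3′UTRs (filled symbols) and all other transcripts (open symbols) in the 3 libraries. Bars are exact Poisson 95% intervals for counting error. In the longest class the stop-free 3′UTRs stand at 14.4% in G418 A and the others at 2.02%. The values of the others are for whole 3′UTRs, which lie mostly past their first in-frame stop codon.

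The 209 stop-free 3′UTRs whose stop codon also ends the MANE Select transcript had pooled occupancies of 1.07% and 0.999% in the untreated libraries and 17.0% in G418 A. The 29 whose MANE Select transcript ends elsewhere had 0.485%, 0.639% and 5.03%, from 12, 27 and 147 reads. STMN1 and ATP5PF, both without a 3′UTR read in G418 A, set much of the low values of these 29, which were 1.19%, 1.33% and 11.6% without them. In G418 A, 17 of the 29 had no 3′UTR read. The part that reads from isoforms with the other stop codon play in these values was not tested. The 95 with a longer in-frame-stop isoform had 18.2% in G418 A and the 143 without one had 14.9%.

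Across single transcripts, 68 of 242 stop-free 3′UTRs held a read in Untreated A (28.1%), 69 did so in Untreated B (28.5%) and 182 did with the drug (75.2%). The median occupancy was 0%, 0% and 12.2%, with an upper quartile of 25.3% in G418 A. No read was found in any library for 53 transcripts, and 87 had reads in G418 A alone. Of all 5680 transcripts, whose 3′UTRs have a median of 934 nt, these numbers were 558 and 1655. A read was held by 44.9%, 45.3% and 86.6% of all 5680 in the same order of libraries. In G418 A the occupancy was above both untreated libraries for 175 stop-free transcripts (72.3%) and below both for 2. The same pattern held for 79.1% of all 5680 transcripts, so the stop-free share is no higher than the background. Of the stop-free 3′UTRs, 21 exceeded 50% and 2 exceeded 100% in G418 A.

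**Figure D2:**
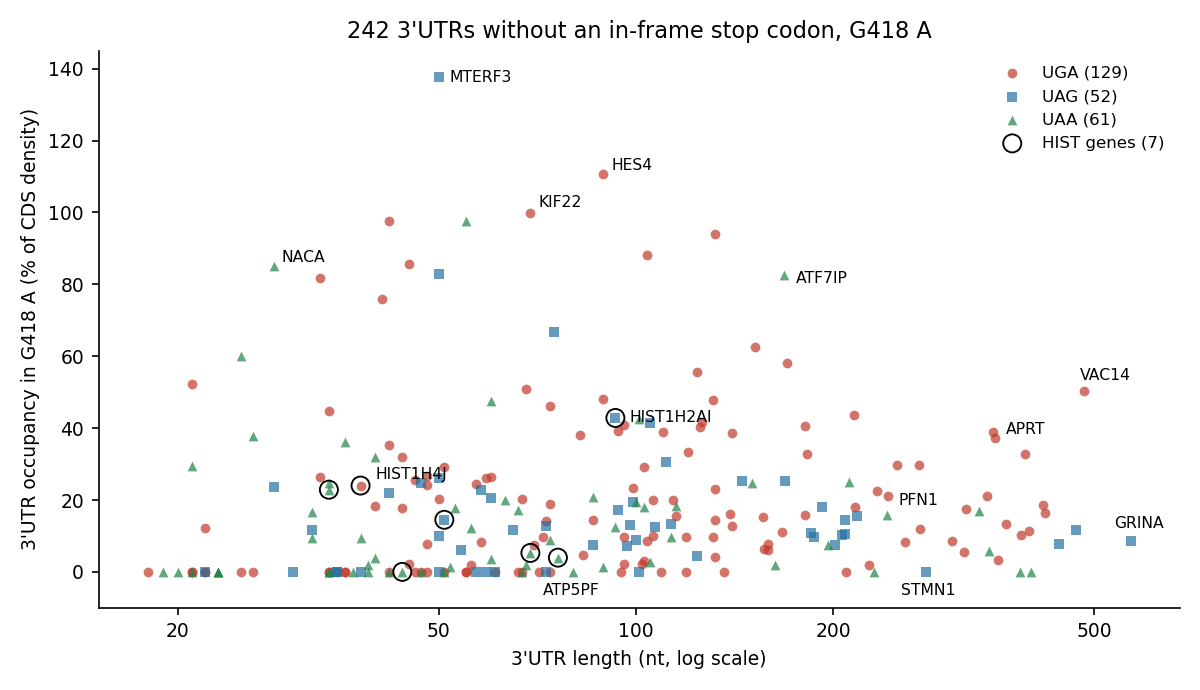
3′UTR occupancy in G418 A (percent of CDS density) against 3′UTR length in nt on a log axis for the 242 stop-free 3′UTRs, each point 1 transcript, by stop codon, with the 7 HIST genes ringed. Values spread from 0% to 138% at short lengths, and long 3′UTRs such as VAC14 (50.4%) and APRT (37.1%) lie within the same range.

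The 10 non-HIST genes with the highest occupancy among those with at least 20 3′UTR reads in G418 A included HES4, KIF22, NACA, ATF7IP, C6orf89, PUF60, RNH1 and MRFAP1. Their 3′UTRs run from 28 to 170 nt, and 7 of the 10 end in UGA, which ends 53.3% of the whole set. HES4, a transcriptional repressor of the HES family, had 0, 8 and 35 3′UTR reads in Untreated A, Untreated B and G418 A, which are 0%, 25.2% and 111% of its CDS density. Its G418 A interval, 77.1 to 154, includes a density equal to the CDS.

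ATF7IP, a partner of the histone methyltransferase SETDB1, had 0, 0 and 37 reads and 82.6% in G418 A, at least 32.2-fold above the untreated pair if 3 reads are taken as the floor over both untreated libraries. C6orf89 had 0, 0 and 28 reads and 66.7%, at least 14.8-fold higher on the same floor. In the MANE Select transcripts of ATF7IP and C6orf89, an in-frame stop codon lies within 198 and 180 nt past the same stop codon. PUF60, a splicing factor, had 2, 4 and 38 reads and 58.1%. RNH1, the cytosolic ribonuclease inhibitor, had 1, 0 and 39 reads and 55.7%. In these 4 genes both untreated values lie below the G418 A interval. The intervals cover counting error only, and neither these 4 genes nor HES4 passed the edgeR test described below. MTERF3, a mitochondrial factor outside this group with 12 reads in G418 A, had the highest value of all (138%, interval 71.1 to 240), and was picked out after its value was seen.

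The 3′UTR test compared G418 A with the untreated pair by edgeR's quasi-likelihood test on 3′UTR reads, with the CDS reads setting the expected count, so that it tests occupancy and not the amount of mRNA. It covered 3125 transcripts with at least 10 3′UTR reads over the 3 libraries and called 473 higher (15.1%) and none lower at an adjusted p under 0.05. Of the stop-free 3′UTRs 100 were tested, 27 were called higher and 0 lower. The 142 others had too few reads, and since most reads come from G418 A, a transcript passes this minimum mainly where G418 A is high. With no minimum, 24 of 189 with any read were called, where 7.3% of all 5122 were. DESeq2 on the same reads called none of the 100 and 1 of all 3125 (0.032%), with 33 of the 100, and 17.5% of all, at an unadjusted p under 0.05. The calls thus depend on the tool.

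Cytosolic ribosomal proteins made up 8 of the 27 calls, out of 12 tested, and included RPL5, RPL30, RPL32, RPLP0, RPLP2, RPS9 and RPS14. Their 3′UTRs are 28 to 74 nt long and their CDSs hold at least 1609 reads in each library. Transcripts with more reads are called more often, so the share called is not read as a trait of this group. The same limit applies to the HIST genes below. RPLP0, the stalk base protein, had 2, 6 and 107 reads and 1.57%, 2.68% and 47.6%, a fold of 22.4 over the untreated mean (log2 change 4.40 ± 1.22 SE, adjusted p = 0.00493 by edgeR). RPS18, the lowest of the 12 in G418 A, had 2, 2 and 16 reads and 1.997% there and was not called. Pooled over the 12, the occupancy was 1.15%, 1.02% and 16.6%. Ribosomal proteins have many near-identical pseudogenes, so single values are uncertain.

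Outside the ribosomal proteins and the HIST genes the test called 15 transcripts. PFN1, which encodes the actin-binding protein profilin, had the most reads of all: 23, 23 and 565, or 0.868%, 0.462% and 21.1% (log2 change 4.9998 ± 0.82 SE, adjusted p = 2.95e-07 by edgeR). APRT, the adenine salvage enzyme, had 10, 0 and 164 reads over a 3′UTR of 353 nt, or 2.71%, 0% and 37.1% (interval 31.7 to 43.3). Its log2 change was 4.97 ± 1.06 SE with an adjusted p of 0.000132 by edgeR. The Poisson intervals of its untreated libraries do not overlap, and both lie below that of G418 A.

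MRFAP1 had 1, 3 and 103 reads and 0.628%, 1.06% and 50.8%, a fold of 60.1 (adjusted p = 0.00142 by edgeR). BANF1, a small chromatin protein that bridges DNA at the nuclear envelope, had 3, 7 and 154 reads and reached 33.5%. PPP4C, a protein phosphatase catalytic subunit, had 0, 6 and 123 reads and reached 29.8%. In each of these the G418 A interval lies above both untreated values. TRIM28, a transcriptional corepressor, had 0, 0 and 76 reads and 15.2% in G418 A, at least 56.6-fold above the untreated pair on the 3-read floor. BUB3, a spindle checkpoint protein, had 0, 0 and 45 reads and 16.2%, at least 45.9-fold higher. The kinase AURKB had 1, 1 and 66 reads and 47.9%. In the MANE Select transcripts of BANF1 and ACTB, an in-frame stop codon lies within 150 and 243 nt past the same stop codon. The MANE Select transcript of BUB3 ends at another stop codon. The remaining calls outside the HIST genes were ACTB, COX6B1, LAMTOR4, NACA, PFDN5, SRM and TUBB4B.

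**Figure D3:**
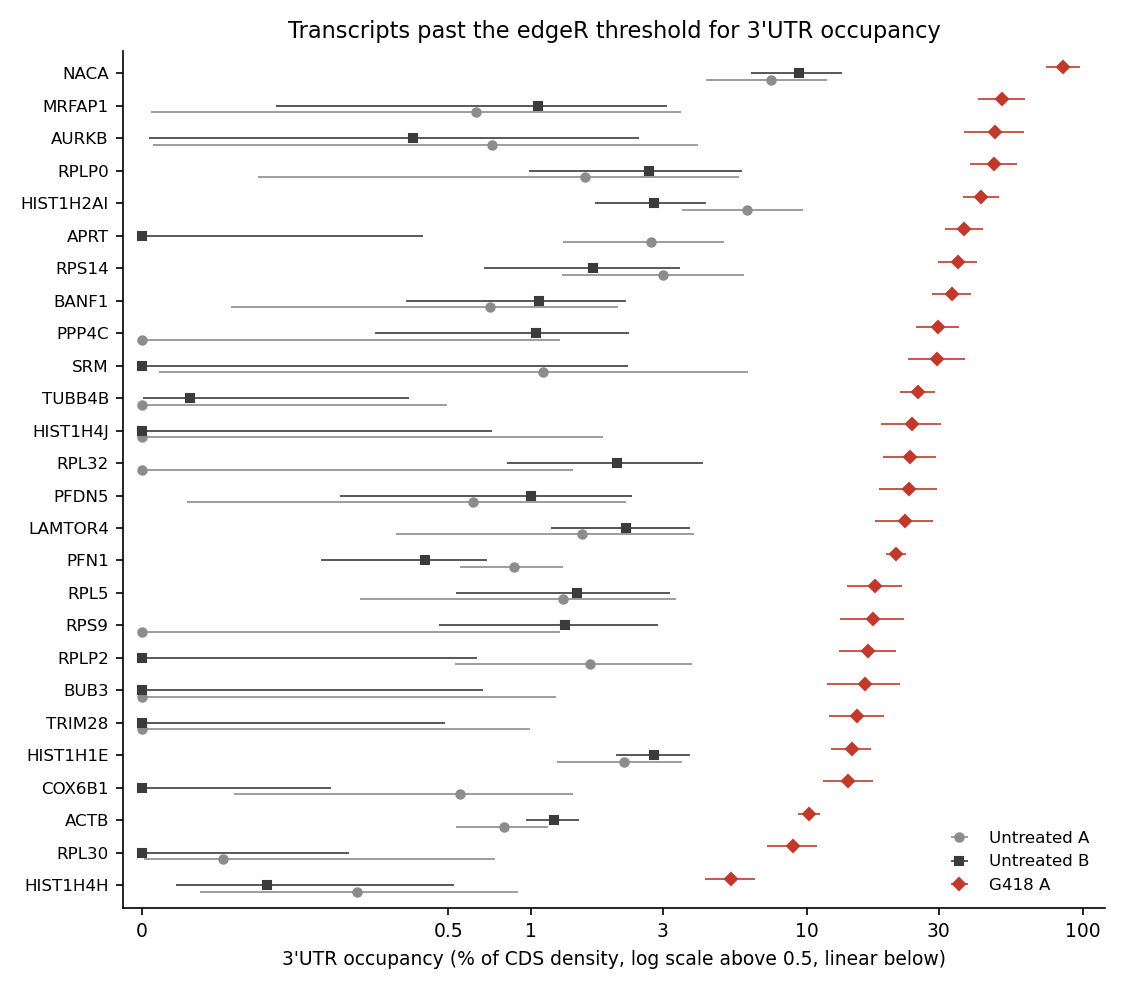
3′UTR occupancy (percent of CDS density, log scale above 0.5 and linear below) of 26 of the 27 stop-free 3′UTRs that passed the edgeR test, 1 row per gene, in Untreated A, Untreated B and G418 A with exact Poisson 95% intervals. G418 A runs from 5.28% (HIST1H4H) to 85.0% (NACA), right of both untreated libraries in every row.

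Mitochondrial ribosomal proteins (5), oxidative phosphorylation genes (6) and proteasome subunits (3) were few. MRPL34 stood out among the first, with 0, 0 and 35 reads and 38.7% in G418 A, while MRPS22 had no read in any library. COX6B1, a subunit of cytochrome c oxidase, was the only call of these 3 groups, with 4, 0 and 94 reads and 14.1% in G418 A. The proteasome genes PSMC3, PSMC5 and PSME1 lay between 12.9% and 31.9% in G418 A.

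Some stop-free 3′UTRs were occupied without the drug. Those with at least 5 reads in each untreated library and the highest untreated occupancy were KIF22, NACA, RPL34, SEC13 and HIST1H2AI. KIF22, a chromosome-binding kinesin, had 11, 10 and 29 reads, or 44.4%, 18.6% and 99.9%, and its 3.17-fold difference did not pass the test (adjusted p = 0.285 by edgeR). RPL34 had 20, 15 and 61 reads, or 10.997%, 5.66% and 24.6% (adjusted p = 0.233 by edgeR). SEC13, part of the COPII coat and the nuclear pore, had 6, 12 and 44 reads, or 4.47%, 4.94% and 24.7% (adjusted p = 0.142 by edgeR).

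NACA, a subunit of the complex that meets nascent chains at the ribosome, was high in both conditions and called, with 17 and 29 untreated reads and an occupancy of 7.40%, 9.32% and 85.0% (log2 change 3.33 ± 0.83 SE, adjusted p = 0.0015 by edgeR). Its deposited 3′UTR is only 28 nt, and a longer transcript with the same stop codon holds an in-frame stop codon. The closely related NACA2, also in the set, had 2, 5 and 37 reads and 42.5% in G418 A, and reads may be credited to either gene.

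At the other end, 4 non-HIST 3′UTRs had no read in G418 A although at least 100 were expected from their CDS density. STMN1, which encodes the microtubule-destabilising protein stathmin, had 0 of 1159.8 expected reads, which allows an occupancy of up to 0.259%. It had 0 and 3 reads in the untreated libraries. ATP5PF, a subunit of the ATP synthase stalk, had 0 reads in all 3 libraries and 0 of 499.1 expected in G418 A, which allows up to 0.601%. For both genes the MANE Select transcript ends at another stop codon.

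H2BFS, a histone H2B gene on chromosome 21, and CU639417.1, with the same CDS length of 348 nt, stop codon and 3′UTR length of 23 nt, had no 3′UTR read in any library either. In G418 A a count of 0 allows up to 2.59% for H2BFS and 2.45% for CU639417.1. As with the HIST genes, CDS reads of near-identical copies may be credited to either, so these limits are uncertain. The next lowest were RAC1, a small GTPase with 1, 0 and 2 reads and 1.79% in G418 A, and GAPDH, the glycolytic enzyme, with 0, 4 and 34 reads and 1.95%. Of these 6 genes, 5 end in UAA, which ends 25.2% of the whole set, and STMN1 ends in UAG. GAPDH lies outside the naming rule, and H2BFS and CU639417.1 may be copies. The 6 are therefore not independent cases, and no trait of a stop codon is read from them.

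The 3 longest stop-free 3′UTRs belong to GRINA (568 nt), VAC14 (483 nt) and MLST8 (469 nt). VAC14, a scaffold of the PIKfyve lipid kinase complex, had 3, 3 and 23 reads, or 11.2%, 5.71% and 50.4%. MLST8, a subunit of the mTOR complexes, had 0, 3 and 13 reads and 11.7% in G418 A. GRINA, a membrane protein of the Golgi and endoplasmic reticulum, had 0, 4 and 16 reads and 8.69%. G418 A was the highest library in each, and none passed the edgeR test, with adjusted p of 0.356, 0.487 and 0.368.

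The 7 HIST genes of the set are HIST1H1E (linker histone H1), HIST1H2AI and HIST2H2AB (H2A), HIST1H2BE and HIST1H2BL (H2B), and HIST1H4H and HIST1H4J (H4). All are single-exon genes, on chromosome 6 except HIST2H2AB on chromosome 1. A stem-loop of the histone type, 6 paired bases around a loop of 4 that begins with UU, was found past the stop codon of all 7, beginning 23 to 45 nt after it. The deposited 3′UTR, counted from the stop codon, ends 3 nt before the end of the loop in HIST1H1E. It ends 11 nt before it in HIST2H2AB and 1 to 40 nt past it in the others. Occupancy there covers the whole loop in 5 of the 7 genes and a part of it in HIST1H1E and HIST2H2AB. In GENCODE v44 the 3′UTRs of HIST1H1E and HIST1H2AI have other lengths, 65 nt in both. Reads from near-identical histone genes can be credited to the wrong copy, and every value of a single HIST gene is uncertain for that reason.

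Pooled over the 7, occupancy was 1.43% in Untreated A (41 reads), 1.55% in Untreated B (88 reads) and 13.2% in G418 A (511 reads), 8.89-fold above the untreated mean of 1.49% ± 0.0893 (SD, n = 2). HIST1H4J had 0, 0 and 65 reads and 24.0% in G418 A (interval 18.5 to 30.6), at least 57.1-fold above the untreated pair on the 3-read floor (adjusted p = 0.00549 by edgeR). HIST1H2AI had 17, 20 and 183 reads, or 6.03%, 2.78% and 42.8%, with a log2 change of 3.32 ± 0.86 SE and an adjusted p of 0.00236 by edgeR. HIST1H1E, the longest of the 7 CDSs and the one with the most reads, had 16, 43 and 140 reads, or 2.17%, 2.80% and 14.5% (log2 change 2.53 ± 0.82 SE, adjusted p = 0.0211 by edgeR).

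The 2 H4 genes differed in level: HIST1H4H had 4, 4 and 92 reads and 5.28% in G418 A, with the interval 4.26 to 6.47 below that of HIST1H4J (log2 change 4.25 ± 1.26 SE, adjusted p = 0.00952 by edgeR). HIST1H4J ends in UGA and HIST1H4H in UAA. The deposited 3′UTR, counted from the stop codon, runs 18 nt past the stem-loop in HIST1H4H and 6 nt in HIST1H4J. This stretch is 39 nt in HIST1H2AI, 40 nt in HIST1H2BL and 1 nt in HIST1H2BE. Levels of single HIST genes therefore do not cover matching regions, and the effect of this was not tested. The H2B genes were lowest. HIST1H2BE had no 3′UTR read in any library, which allows up to 3.38% in G418 A, and HIST1H2BL had 0, 12 and 11 reads and 3.96% (adjusted p = 0.404 by edgeR). HIST2H2AB had 4, 9 and 20 reads, or 6.55%, 5.62% and 22.9% (adjusted p = 0.351 by edgeR). The test therefore called 4 of the 6 HIST genes with enough reads.

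**Figure D4:**
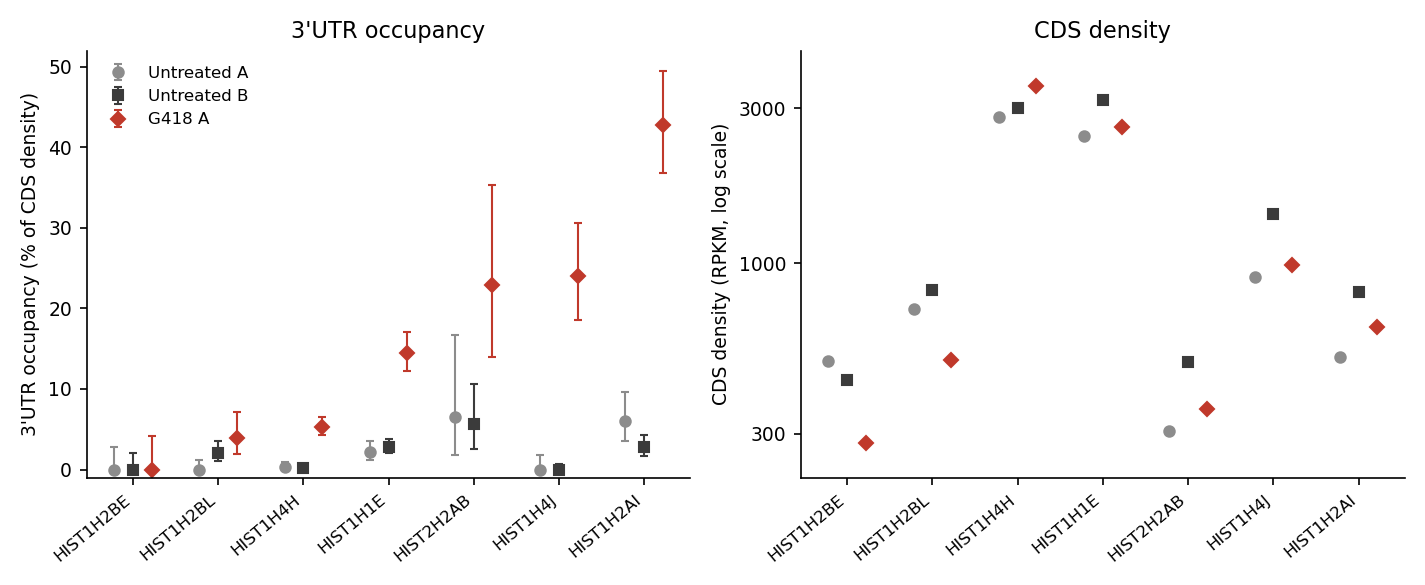
The 7 HIST genes in Untreated A, Untreated B and G418 A: 3′UTR occupancy in percent of CDS density with exact Poisson 95% intervals (left) and CDS density in RPKM on a log axis (right). Occupancy in G418 A runs from 0% (HIST1H2BE) to 42.8% (HIST1H2AI), and the CDS density of both H2B genes is lowest in G418 A.

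CDS density gives the ribosome fragments on each of these CDSs relative to all reads of the library. A change shared by all transcripts would not show on this scale. RNA was not measured in the files used here, so a change in mRNA amount, in ribosomes per mRNA or in the number of cells that express a gene cannot be told apart. For the 242 transcripts the median log2 change of the deposited CDS density (RPKM), G418 A over the untreated mean, came to -0.0029, against 0.07 for all 5680. Against Untreated A alone it was 0.10, and against Untreated B alone -0.08. Between the untreated libraries the same transcripts differed by a median of 0.17, against 0.03 for all. The shift between replicates was therefore larger than that with G418, and the direction of the median depends on the untreated library used.

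The edgeR test on CDS reads called 106 of 5680 transcripts higher (1.87%) and 40 lower (0.704%), 2.57% in all. Of the stop-free set it called 4 higher (SRM, MAP3K2, MAP2K2 and MLF2) and 4 lower (HIST1H2BE, HIST1H2BL, DYNLL1 and XAB2), or 1.65% in each direction. DESeq2 called none higher and only the 2 HIST genes lower, with 11 higher and 19 lower at an unadjusted p under 0.05. Of all 5680 DESeq2 called 10 higher (0.176%) and 17 lower (0.299%).

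SRM, spermidine synthase, had a CDS density of 57.5, 64.4 and 121 RPKM (log2 change 0.92 ± 0.21 SE, adjusted p = 0.00171 by edgeR), and its 3′UTR was also called, with 1, 0 and 70 reads. MAP3K2, a kinase that activates MAP kinase kinases, had 12.1, 13.6 and 25.9 RPKM (log2 change 0.93 ± 0.28 SE, adjusted p = 0.0377). MAP2K2, the MAP kinase kinase MEK2, had 34.3, 38.7 and 64.9 RPKM (adjusted p = 0.0386). MLF2 had 125, 122 and 205 RPKM (adjusted p = 0.0279). In all 4 the untreated libraries lie close together and G418 A lies above both.

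Of the other large rises, MAD2L2, a subunit of DNA polymerase zeta, had 33.7, 41.6 and 70.1 RPKM (adjusted p = 0.0909 by edgeR) and PKMYT1, a kinase that inhibits CDK1, had 14.1, 15.3 and 26.5 RPKM (adjusted p = 0.113 by edgeR). MAP3K2 was the only stop-free transcript to change at least 2-fold over the untreated mean, where 1.06% of all transcripts rose and 0.088% fell that far. Between the untreated libraries 2 stop-free transcripts, HES4 and NPDC1, were that much higher in Untreated B and 0 lower, against 0.282% and 0.141% of all transcripts.

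HIST1H2BE had 503, 438 and 280 RPKM (log2 change -0.82 ± 0.19 SE, adjusted p = 0.00371 by edgeR), and HIST1H2BL had 723, 830 and 507 RPKM (log2 change -0.69 ± 0.18 SE, adjusted p = 0.0166 by edgeR). The other 5 HIST genes did not pass the test, and in HIST1H1E, HIST1H4J, HIST1H2AI and HIST2H2AB G418 A lay between the untreated libraries. HIST1H4H had 2819.8, 2994 and 3500.3 RPKM, the highest in G418 A. DYNLL1, a dynein light chain, had 734, 841 and 514 RPKM (adjusted p = 0.0216 by edgeR). XAB2, a splicing and repair factor, had 32.5, 36.0 and 21.9 RPKM (adjusted p = 0.0424 by edgeR).

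EIF1AD had 43.0, 42.2 and 24.7 RPKM, the largest fall on the log2 scale in the stop-free set. It rests on 117, 186 and 83 CDS reads (log2 change -0.85 ± 0.38 SE by edgeR) and did not pass the test. NTHL1, a DNA glycosylase, had 36.4, 53.7 and 27.5 RPKM, and PC, pyruvate carboxylase, had 4.87, 7.17 and 3.84 RPKM. Neither passed the test (adjusted p = 0.118 and 0.345 by edgeR), and their untreated libraries differ from each other more than G418 A differs from Untreated A.

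**Figure D5:**
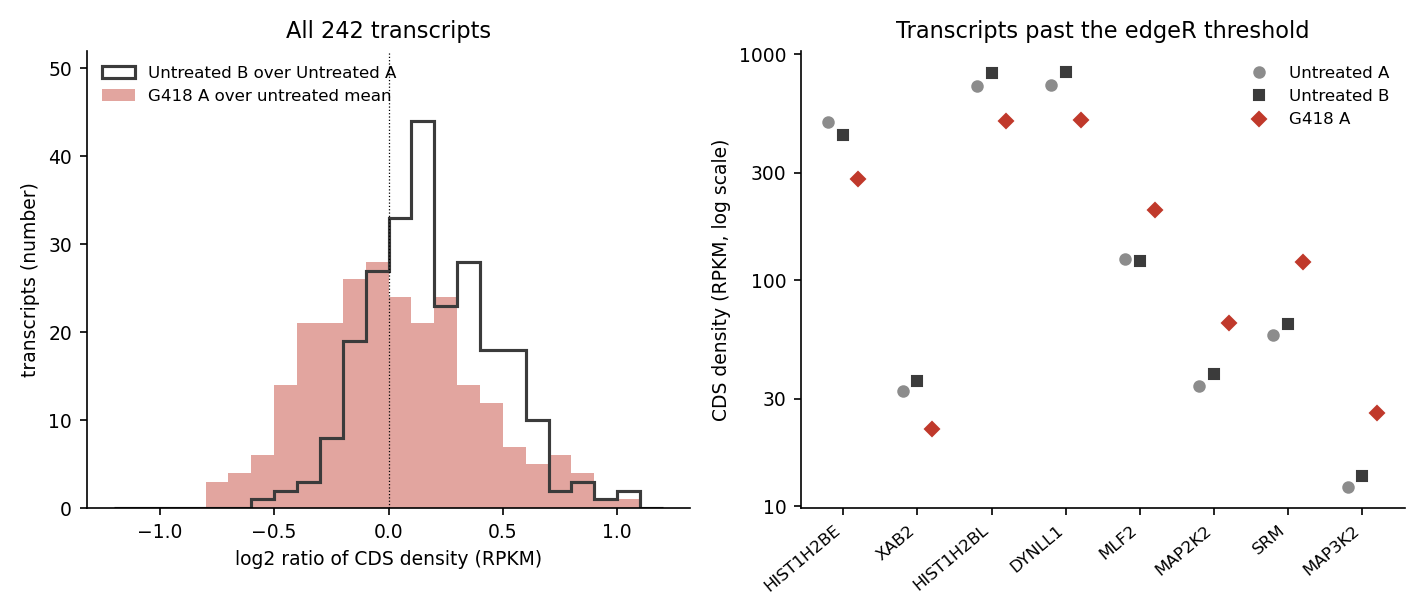
Left, number of the 242 stop-free transcripts by log2 ratio of CDS density, for G418 A over the untreated mean (filled) and Untreated B over Untreated A (line). Right, CDS density in RPKM on a log axis of the 8 transcripts past the edgeR threshold. The line is centred at 0.17 and the filled bars near 0, and the 4 falling and 4 rising genes separate G418 A from both untreated libraries.

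By group, the 12 cytosolic ribosomal proteins had a median log2 change of CDS reads of 0.22 (9 above 0) and the 3 proteasome genes one of -0.54, with none of either group called. The factors that act on ribosomes at mRNA ends and on nonstop mRNAs were read from a list of 34 genes, of which 29 met the read minimum. None of them passed the CDS test in either direction, with a median log2 change of -0.05 and a range of -0.70 (TCF25, adjusted p = 0.0589 by edgeR) to 0.44 (ETF1, adjusted p = 0.206). HBS1L had a log2 change of 0.04 and ABCE1 of 0.23. At an unadjusted p under 0.05 edgeR listed 4 of the 29 and DESeq2 3, where 13.6% and 7.02% of all 5680 transcripts lay, and DESeq2 called 0 after adjustment. Of 15 measured genes for histone mRNA 3′ end processing and decay, edgeR called 0 (median -0.04, with 2 at an unadjusted p under 0.05) and DESeq2 0 (1 unadjusted). Of 14 for 3′ end formation and the poly(A) tail, edgeR called 0 (median 0.06, with 1 unadjusted) and DESeq2 0 (0 unadjusted).

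2 genes of these lists have stop-free 3′UTRs themselves. EXOSC7, a subunit of the exosome, had 0, 7 and 16 3′UTR reads and 41.8% in G418 A. SYMPK, the scaffold protein symplekin of 3′ end processing, had no 3′UTR read in any library, which allows up to 22.7% in G418 A. Their log2 changes of CDS reads were -0.18 and -0.50, and neither passed the test (adjusted p = 0.843 and 0.245 by edgeR).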

How the data were processed

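Ribosome-protected fragments of 28 to 35 nt had been mapped by the authors with STAR to hg38 under GENCODE v30 and assigned to 1 transcript for each gene. Fragments that matched several places were kept at their primary alignment. For each transcript the authors deposited RPM values of the CDS and the 3′UTR, whole-number counts beside them, CDS densities in RPKM, and ratios of 3′UTR density to CDS density. The deposited 3′UTR length leaves out the first 6 nt after the stop codon, as a comparison of lengths with GENCODE showed.

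All deposited RPM values (100%) divided by the value of 1 read gave whole reads within 0.01 of a read, and these reads were used. The deposited CDS counts of Untreated A fell short of them by 1 in 9080 of 9099 transcripts. Occupancy is the deposited ratio in percent. Pooled occupancy is the sum of 3′UTR reads over the sum expected from the CDS density, with exact Poisson 95% intervals. Floors are 3 reads. Intervals and floors cover counting error only.

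Tests used edgeR 4.0.16 (R 4.3.3), quasi-likelihood, with 1 residual degree of freedom, TMM for CDS reads and expected 3′UTR reads as offset for occupancy, Benjamini-Hochberg adjusted over all transcripts tested. DESeq2 1.42.0 was an alternative. The study calls its replicates biological, without details of the cultures here, and p-values measure the spread between these libraries, and the lone G418 library is assumed to vary like them. Stop codon positions, contexts and isoforms came from GENCODE v44 on hg38. The members, gene lists and tests were chosen with earlier results of these data known. Genes were named by rank: the 10 highest (at least 20 reads) and 5 lowest (at least 100 expected) non-HIST occupancies in G418 A, the 6 HIST genes with the most CDS reads, the 5 largest CDS density changes each way, the 5 highest untreated occupancies, the 3 longest 3′UTRs, APRT and HIST1H4J, which the study shows, and list genes past the CDS test. Other genes named here passed a test, stand at a threshold or were chosen after their values were seen. Some genes that these rules name are not reported here.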

Additional observations from a re-analysis of the deposited data

How the results depend on the processing

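The pooled occupancy of the stop-free 3′UTRs in G418 A stayed above the untreated mean under all 13 alternatives run. The fold of 16.1 moved by more than its spread between untreated libraries to 17.5 without HIST genes, 18.4 with the deposited whole-number counts, 17.2 with a minimum mean of 500 CDS reads and 18.2 with 3′UTRs of at least 60 nt, and ran from 15.7 to 16.5 when an untreated library was left out. Of the alternatives chosen after seeing the data, it was 17.5 without transcripts that have a longer in-frame-stop isoform, 17.7 in MANE Select transcripts, 16.5 where the stop codon is that of MANE Select, and 19.99 without genes that share reads with near-identical copies. DESeq2 called 0 stop-free 3′UTRs for occupancy against 27 by edgeR, which gave 19 to 27 under its other settings. For CDS reads DESeq2 called 0 higher and 2 lower against 4 and 4, a fit to all listed transcripts called 2 higher, and 2 were lower without HIST genes. The count of 2-fold CDS density changes was 0 with TMM-scaled density and 0 with at least 500 CDS reads, and 1 to 4 when an untreated library was left out, with 4 over Untreated A alone. Leaving out STMN1 and ATP5PF, also chosen after seeing the data, moved the G418 A occupancy of the 29 stop-free 3′UTRs with another MANE Select stop codon from 5.03% to 11.6%. The causes were not tested. Of 314 further values for named genes, 17 lost their side of the threshold, mostly under DESeq2, and none reversed. No paired analysis was possible because the groups share only the replicate letter A. Depth limits single transcripts most: 142 of the stop-free 3′UTRs had under 10 3′UTR reads in all.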
